A study of Mus musculus with 114 samples.

Results

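The 9 genes described here belong to the Hippo pathway and to the sensing of mechanical load. They were chosen by symbol, as Yap1, Wwtr1, Tead1, Tead3, Lats1, Lats2, Amotl1, Amotl2 and Piezo1, out of 29132 genes listed for 38 mice, and all 9 were among the 10343 genes tested. RNA was sequenced from adipocytes of the perigonadal white fat of male C57BL/6J mice, collected as the cells that float after collagenase digestion. The diets, a chow diet (CD) and one high in fat (HFD), began when the mice were 6 weeks old and lasted 8 weeks, 20 weeks or 34 weeks. Each group held 6 mice, except the 34 week CD group with 8, and no genotype or treatment other than diet and time separates them in the labels. Levels are given as CPM, the reads of a gene scaled to the same total of reads in every mouse, and differences as log2 fold changes of CPM + 1 tested with limma over all 10343 genes, in which an adjusted p under 0.05 is a call. Errors are the SD over mice for levels and the SE for log2 fold changes.

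In the Hippo pathway the LATS kinases phosphorylate the co-activators YAP and TAZ, which are then held in the cytoplasm or degraded. When the kinases are less active, for example in cells that spread on a stiff matrix, YAP and TAZ enter the nucleus and bind the TEAD factors, which contact DNA. The angiomotin-like proteins hold YAP and TAZ at cell junctions and the actin skeleton, and both Lats2 and Amotl2 are themselves well known targets of YAP, so that the pathway feeds back on itself. Piezo1 is a cation channel opened by membrane tension. In fat, TAZ is known as a repressor of the adipogenic receptor PPARG, and adipocytes are stretched as their lipid droplet grows.

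TEAD factors bind the letters GGAATG. The stretches holding them in the 250 bases before a start site of the genes are shown because the pathway's feedback runs through such letters. RefSeq start sites on GRCm38.p6 were found for 8 of the 9 genes, all except Tead1. The letters were searched on both strands, and 4 of these 8 windows held them, against 12.6% of 32851 windows of the same length. The window of Lats2, a feedback target named above, did not hold them, nor did those of Lats1, Amotl1 and Piezo1. Each stretch of 30 bases is written along the strand of its gene, with GGAATG or its reverse complement CATTCC in capitals. A match describes the letters only and no binding was measured.
Yap1: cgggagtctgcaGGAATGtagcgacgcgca
Wwtr1: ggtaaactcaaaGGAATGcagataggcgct
Tead3: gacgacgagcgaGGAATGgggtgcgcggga
Amotl2: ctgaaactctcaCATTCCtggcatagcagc
The Yap1 stretch lies at chr9:8004720-8004749 (minus strand), with the letters beginning 141 bases before the start. The Wwtr1 stretch lies at chr3:57576029-57576058 (minus strand), 136 bases before the start. The Tead3 stretch lies at chr17:28350970-28350999 (minus strand), 182 bases before the start. The Amotl2 stretch lies at chr9:102717727-102717756 (plus strand), with the letters beginning 65 bases before the RefSeq start. This stretch overlaps an exon of its gene in GENCODE vM21, while the other 3 stretches overlap no exon of their genes there. GC content of the 8 windows ranged from 58.4% for Amotl1 to 76.4% for Yap1, against a median of 52.4% over all windows. The Amotl1 window precedes an internal start site (chr9:14615000), far from the 5' end of the gene at chr9:14662974. The Amotl2 start site (chr9:102717804) also lies inside its gene, which begins at chr9:102717091. Letters before the outermost start of these genes were not searched.

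Each mouse had between 9275711 and 15480388 reads on genes, so that 1 read equals 0.0646 to 0.108 CPM, and the 8 week CD and HFD mice did not overlap in depth (10562845 to 12611013 and 13201234 to 15480388 reads). Depth also differed between times. On CD all 20 week mice (13091365 to 14292115 reads) lay above the 8 week and the 34 week mice (9275711 to 12433584). On HFD all 34 week mice (10714545 to 12271651 reads) lay below the 8 week and the 20 week mice (13159018 to 14961360). All 10 adipocyte markers, among them Adipoq and Plin1, were detected, with a median summed level of 29086 CPM in 8 week CD mice and 14865 CPM in 34 week HFD mice. Markers of other cells were present as well and moved with diet. The 11 macrophage markers, none of them at 0, summed to 252 to 1541 CPM (8 week CD), 1076 to 3320 CPM (8 week HFD), 391 to 3262 CPM (20 week CD), 4651 to 9030 CPM (20 week HFD), 1171 to 13005 CPM (34 week CD) and 5493 to 16531 CPM (34 week HFD). The medians of the 10 endothelial and the 10 progenitor and fibroblast markers were also higher on HFD at each time, for example 794 and 1907 CPM for the latter at 20 weeks. The median log2 fold change of all genes was 0.11, 0.14 and 0.07 for HFD against CD at 8, 20 and 34 weeks. Rescaling with TMM factors moved it by -0.11, -0.19 and -0.09, and the share of called genes that were higher on HFD from 66.3%, 67.1% and 63.6% to 49.9%, 46.4% and 50.4%. The members are therefore set against this median in the plot of diet differences.

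**Figure D1:**
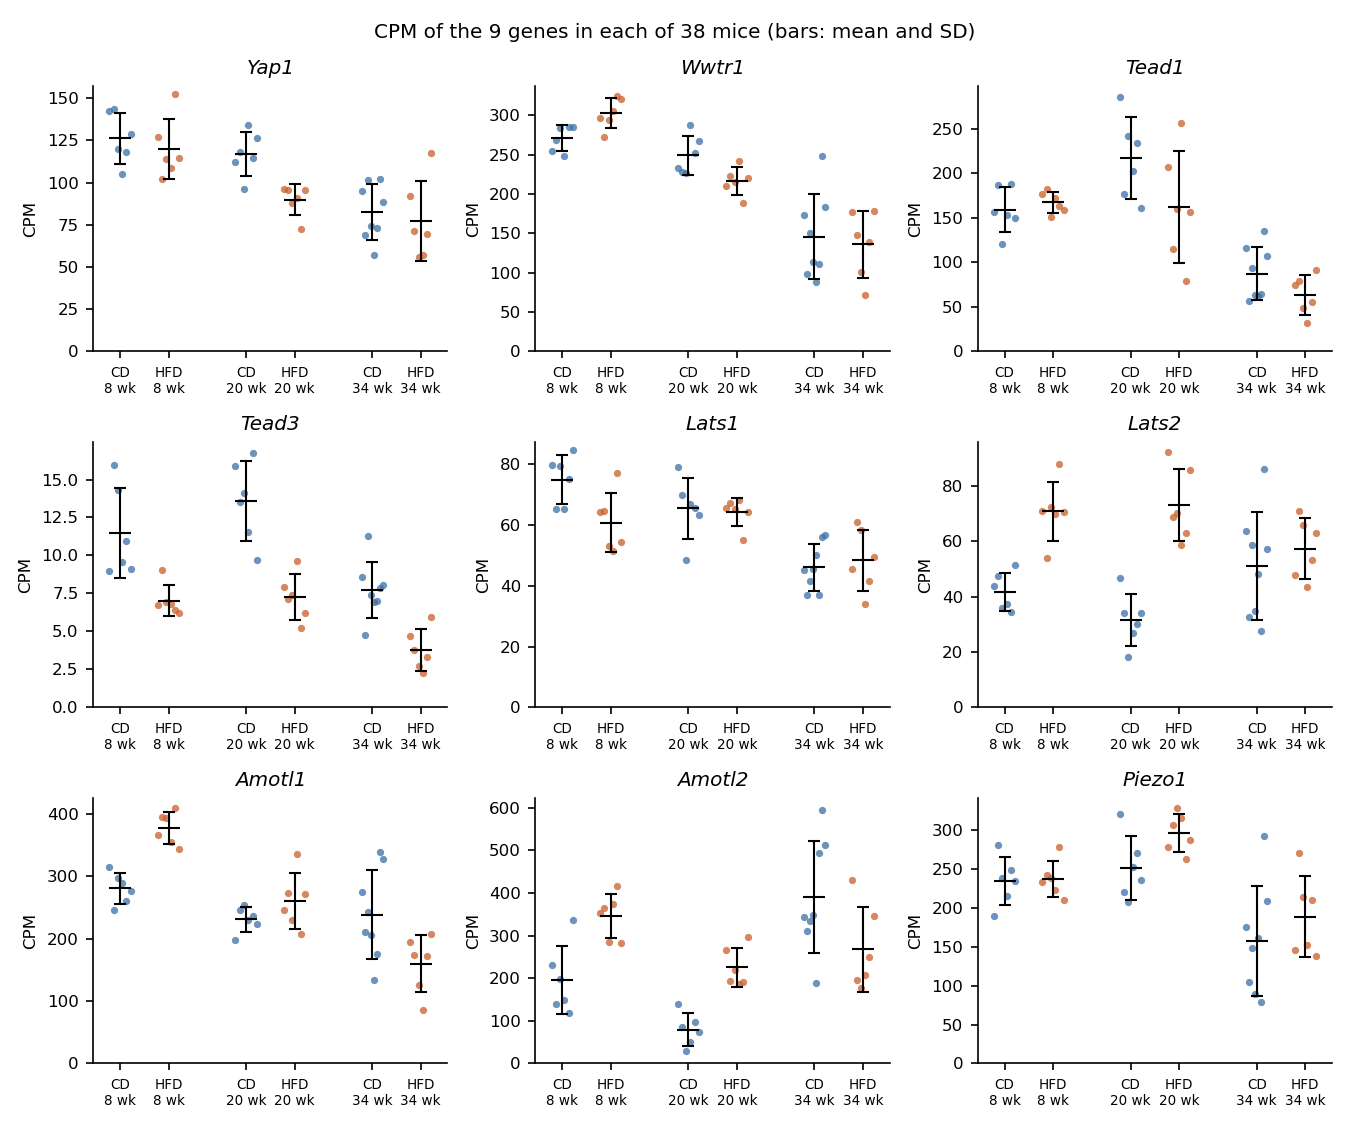
Levels of the 9 genes in CPM (y axis, from 0) for each of the 38 mice (points, blue for CD and orange for HFD) by diet and weeks on diet (x axis), with the mean and SD of each group as black bars. Lats2 and Amotl2 are lowest in the 20 week CD mice, with means of 31.6 and 78.7 CPM, and Tead3 is lowest in the 34 week HFD mice, with a mean of 3.78 CPM.

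The diet called 5 of the 9 genes at 8 weeks, 4 at 20 weeks and 2 at 34 weeks. At 8 weeks Lats2, Amotl1 and Amotl2 were higher and Tead3 and Lats1 lower on HFD, where 44.9% of all genes tested were called, 29.8% as higher and 15.1% as lower. At 20 weeks Lats2 and Amotl2 were higher and Yap1 and Tead3 lower, beside 57.0% of all genes, 38.3% higher and 18.7% lower. At 34 weeks Tead3 and Amotl1 were lower and no member was higher, beside 43.2% of all genes, 27.5% higher and 15.7% lower. Read against these shares, 5 of 9 was close to the background at 8 weeks and the later counts were below it. Tead3 was the member called in the same direction at all 3 times. In these bulk samples, fewer cells of a type and less RNA per cell cannot be told apart, and the macrophage markers moved with diet beside each of these calls.

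**Figure D2:**
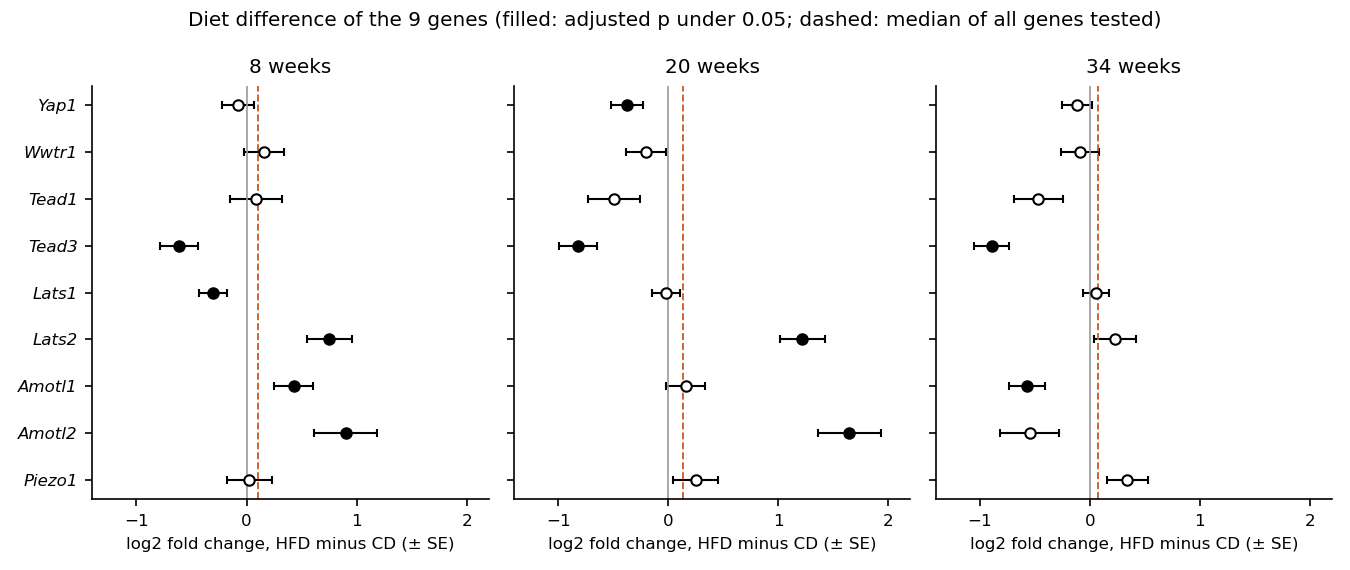
Log2 fold change of HFD against CD (x axis) for the 9 genes (y axis) at 8, 20 and 34 weeks, with SE as bars. Filled points are calls at an adjusted p under 0.05 and the dashed line is the median of all 10343 genes (0.11, 0.14 and 0.07). Lats2 and Amotl2 lie furthest to the right at 20 weeks (1.22 and 1.64) and Tead3 is left of the line at all 3 times.

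Yap1 encodes the co-activator YAP. At 8 weeks the lowest, median and highest mice had 105, 124 and 144 CPM on CD and 102, 114 and 152 CPM on HFD. At 20 weeks the same values were 96.1, 116 and 134 CPM on CD and 72.6, 93.3 and 96.3 CPM on HFD, and at 34 weeks 56.8, 81.4 and 102 CPM on CD and 55.8, 70.4 and 118 CPM on HFD. The diets overlapped at each time, and at 20 weeks 5 of 6 HFD mice lay below every CD mouse. The log2 fold change on HFD was -0.37 (SE 0.14, adjusted p = 0.0263) at 20 weeks, and -0.08 (adjusted p = 0.674) and -0.12 (adjusted p = 0.488) at 8 and 34 weeks. The call at 20 weeks was lost without CD mouse 4 (adjusted p = 0.0622), CD mouse 6 (0.0509) or HFD mouse 5 (0.0746), and with the macrophage markers as a covariate the log2 fold change was -0.07 (adjusted p = 0.824). In the order of group means, from 126 ± 15.04 CPM in 8 week CD to 77.3 ± 23.7 CPM in 34 week HFD mice, the only neighbours that differed were 20 week CD and 20 week HFD.

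Wwtr1, which encodes TAZ, was called at none of the 3 times. Its lowest, median and highest values at 8 weeks were 249, 276 and 286 CPM on CD and 273, 301 and 325 CPM on HFD. At 20 weeks they were 227, 243 and 288 CPM on CD and 189, 218 and 242 CPM on HFD, and at 34 weeks 88.6, 132 and 248 CPM on CD and 72.3, 144 and 178 CPM on HFD. The diets overlapped at each time, although 5 of 6 HFD mice lay above every CD mouse at 8 weeks and 5 of 6 below every CD mouse at 20 weeks. The log2 fold changes on HFD were 0.16 (SE 0.18, adjusted p = 0.496), -0.20 (SE 0.18, adjusted p = 0.356) and -0.09 (SE 0.17, adjusted p = 0.690). Fitted on the 2 groups of a time alone, the 8 and 20 week differences passed the test with the same values (adjusted p = 0.0454 and 0.0378). The group means fell into 4 higher groups, from 303 ± 19.2 CPM in 8 week HFD to 217 ± 17.6 CPM in 20 week HFD, and the 34 week groups at 146 ± 54.1 CPM (CD) and 136 ± 42.2 CPM (HFD), and the step between 20 week HFD and 34 week CD was the only one between neighbours that passed the test (adjusted p = 0.00187).

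Tead1, the TEAD factor with the higher level of the 2 in the set, was also called at none of the 3 times. At 8 weeks it measured 120, 155 and 188 CPM in the lowest, median and highest CD mice and 151, 168 and 182 CPM in the HFD mice. Values of 161, 219 and 285 CPM (CD) and 78.8, 158 and 256 CPM (HFD) were found at 20 weeks, and 56.7, 79.0 and 136 CPM (CD) and 31.4, 64.9 and 91.3 CPM (HFD) at 34 weeks. The diets overlapped at all times, with 4 of 6 HFD mice below every CD mouse at 20 weeks and 3 of 6 at 34 weeks. The log2 fold changes on HFD were 0.09 (SE 0.24), -0.49 (SE 0.24, adjusted p = 0.0753) and -0.47 (SE 0.22, adjusted p = 0.0836) at 8, 20 and 34 weeks. The last of these passed the test without CD mouse 2 (adjusted p = 0.0480) or HFD mouse 6 (0.0325), and the 20 week difference without HFD mouse 1 (0.0461) or HFD mouse 4 (0.0207). With TMM factors, which remove the shift of the median of all genes, Tead1 was lower on HFD at 20 weeks (log2 fold change -0.69, adjusted p = 0.0120) and at 34 weeks (-0.56, adjusted p = 0.0361), and the 8 week value changed sign to -0.03. The group means ran from 217 ± 45.9 CPM in 20 week CD to 63.3 ± 22.04 CPM in 34 week HFD, and the only neighbours that differed were 20 week HFD (162 ± 63.4 CPM) and 34 week CD (87.3 ± 29.8 CPM, adjusted p = 0.00151).

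Tead3 was lower on HFD at each time. It was the lowest of the 9 genes, with CD mice at 8.99, 10.2 and 16.0 CPM and HFD mice at 6.22, 6.77 and 9.01 CPM at 8 weeks as the lowest, median and highest. The values were 9.68, 13.8 and 16.7 CPM (CD) and 5.22, 7.24 and 9.64 CPM (HFD) at 20 weeks, and 4.74, 7.64 and 11.3 CPM (CD) and 2.25, 3.53 and 5.95 CPM (HFD) at 34 weeks. All 6 HFD mice lay below every CD mouse at 20 weeks, where 11.1% of all genes separated the diets in that direction, and 5 of 6 did so at 8 and at 34 weeks. The log2 fold changes were -0.61 (SE 0.17, adjusted p = 0.00456), -0.82 (SE 0.17, adjusted p = 0.000140) and -0.89 (SE 0.16, adjusted p = 0.000110). These calls held without any single mouse. The adipocyte markers moved in the same direction at the later times, with 7 of 10 called lower and 1 higher at both 20 and 34 weeks (median log2 fold changes -0.63 and -0.56) and 1 lower and 1 higher at 8 weeks, and their part in the Tead3 differences was not tested. With the macrophage markers as a covariate the values were -0.37 (adjusted p = 0.111), -0.44 (adjusted p = 0.144) and -0.64 (adjusted p = 0.0245), so the call remained at 34 weeks alone. The diet differences did not pass a test of a change between times (adjusted p from 0.395 to 0.877). In the order of levels, 20 week CD (13.6 ± 2.65 CPM) and 8 week CD (11.5 ± 2.97 CPM) stood above a middle group of 34 week CD, 20 week HFD and 8 week HFD (7.74, 7.25 and 7.02 CPM), and 34 week HFD (3.78 ± 1.36 CPM) was lowest, with the steps between these 3 tiers passing the test (adjusted p = 0.00623 and 0.000309).

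Lats1 encodes the first of the LATS kinases. Its lowest, median and highest values at 8 weeks were 65.4, 77.3 and 84.8 CPM on CD and 51.4, 59.3 and 76.9 CPM on HFD. At 20 weeks they were 48.4, 66.3 and 78.9 CPM (CD) and 55.1, 65.4 and 68.1 CPM (HFD), and at 34 weeks 36.9, 45.3 and 56.7 CPM (CD) and 34.1, 47.4 and 61.0 CPM (HFD). The diets overlapped at each time, with 5 of 6 HFD mice below every CD mouse at 8 weeks. The 8 week log2 fold change was -0.31 (SE 0.13, adjusted p = 0.0463), and the call was lost without CD mouse 1, 3, 5 or 6 or HFD mouse 3, 4 or 6 (adjusted p from 0.0676 to 0.116). It was -0.02 (adjusted p = 0.918) and 0.06 (adjusted p = 0.716) at 20 and 34 weeks, and the 34 week value was -0.03 with TMM factors. The only neighbours in the order of levels that differed were 8 week HFD (60.8 ± 9.76 CPM) and 34 week HFD (48.3 ± 10.1 CPM, adjusted p = 0.0241).

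Lats2, the second kinase, was higher on HFD at 8 and 20 weeks. At 8 weeks the lowest, median and highest mice had 34.2, 40.4 and 51.5 CPM on CD and 54.0, 70.6 and 87.8 CPM on HFD. At 20 weeks they had 18.2, 31.9 and 46.8 CPM on CD and 58.8, 69.4 and 92.1 CPM on HFD. The diets did not overlap at either time, as was true of 15.7% and 26.1% of all genes in that direction. The levels were 1.68-fold higher at 8 weeks (log2 fold change 0.75, SE 0.20, adjusted p = 0.00359) and 2.33-fold at 20 weeks (1.22, SE 0.20, adjusted p = 7.5e-06). At 34 weeks the CD mice spread from 27.6 to 86.1 CPM around a median of 52.6 CPM, and the HFD mice from 43.4 to 70.9 CPM around 58.0 CPM, so that all HFD mice lay within the CD range. The log2 fold change was then 0.23 (SE 0.19, adjusted p = 0.329). The diet difference was smaller at 34 than at 20 weeks by 0.99 on the log2 scale (SE 0.28, adjusted p = 0.0210), while the steps from 8 to 20 weeks (0.47, adjusted p = 0.283) and from 8 to 34 weeks (-0.52, adjusted p = 0.158) did not pass the test. Fitted on the groups compared alone, the 34 against 20 week difference had an adjusted p of 0.0546. With the macrophage markers as a covariate Lats2 stayed higher at 20 weeks (0.90, adjusted p = 0.0160) and had 0.55 at 8 weeks (adjusted p = 0.0579). No neighbours in the order of group means, from 73.1 ± 13.1 CPM in 20 week HFD to 31.6 ± 9.45 CPM in 20 week CD, differed by the test.

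Amotl1 and Amotl2 encode the angiomotin-like scaffolds. At 8 weeks Amotl1 had 246, 282 and 314 CPM in the lowest, median and highest CD mice and 343, 380 and 409 CPM in the HFD mice, without overlap, as was true of 15.7% of all genes in that direction. The log2 fold change was 0.43 (SE 0.18, adjusted p = 0.0465), and this call was lost when any mouse except CD mouse 1 was left out (adjusted p from 0.0533 to 0.0899) and with TMM factors (0.32, adjusted p = 0.147). At 20 weeks the values were 197, 233 and 254 CPM on CD and 207, 258 and 336 CPM on HFD (log2 fold change 0.16, adjusted p = 0.452, and -0.04 with TMM factors). At 34 weeks they were 133, 226 and 338 CPM on CD and 84.8, 173 and 208 CPM on HFD, and 2 of 6 HFD mice lay below every CD mouse. Amotl1 was then lower on HFD by the pooled fit (-0.57, SE 0.16, adjusted p = 0.00567), but not when fitted on the 34 week mice alone (adjusted p = 0.0858) or with the macrophage markers as a covariate (-0.34, adjusted p = 0.267). The diet difference changed from 8 to 34 weeks by -1.001 (SE 0.24, adjusted p = 0.00238) and from 20 to 34 weeks by -0.73 (SE 0.24, adjusted p = 0.0447). The latter call lay close to the threshold. It was lost without any of 17 of the 26 mice (adjusted p from 0.0503 to 0.0832), the largest of these for HFD 34 week mouse 4. With each of the 26 mice left out in turn, the value ran from -0.84 to -0.56. In the order of levels 8 week HFD (377 ± 26.0 CPM) stood above the other groups and 34 week HFD (160 ± 46.1 CPM) below them, and the neighbours between, from 280 to 231 CPM, did not differ by the test.

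Amotl2 had the widest range of the 9 genes, from 28.0 to 594 CPM over the 38 mice, or 21.3-fold. At 8 weeks the lowest, median and highest values were 119, 173 and 337 CPM on CD and 283, 359 and 416 CPM on HFD, and 4 of 6 HFD mice lay above every CD mouse. At 20 weeks they were 28.0, 79.5 and 139 CPM on CD and 185, 206 and 297 CPM on HFD, without overlap, as was true of 26.1% of all genes in that direction. Amotl2 was 1.87-fold higher on HFD at 8 weeks (log2 fold change 0.90, SE 0.29, adjusted p = 0.0113) and 3.13-fold at 20 weeks (1.64, SE 0.29, adjusted p = 1.3e-05). Both calls held without any single mouse and with the macrophage markers as a covariate (0.93, adjusted p = 0.0296, and 1.69, adjusted p = 0.00285). At 34 weeks the order of the diets was the other way around, with 190, 346 and 594 CPM on CD and 177, 228 and 430 CPM on HFD, in overlapping ranges. That difference of -0.55 (SE 0.27, adjusted p = 0.0961) passed the test without CD mouse 5 (-0.68, adjusted p = 0.0300), without HFD mouse 1 (-0.70, adjusted p = 0.0369) and with TMM factors (-0.64, adjusted p = 0.0495). The diet difference fell by 2.19 on the log2 scale from 20 to 34 weeks (SE 0.39, adjusted p = 0.000724) and by 1.45 from 8 to 34 weeks (SE 0.39, adjusted p = 0.00614). At the bottom of the order 20 week CD (78.7 ± 38.4 CPM) lay below 8 week CD (195 ± 80.6 CPM, adjusted p = 0.00416), and no neighbours above it, up to 34 week CD at 391 ± 131 CPM, differed.

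Piezo1, the stretch-gated channel, was called at no time by diet. At 8 weeks the lowest, median and highest mice had 190, 237 and 282 CPM on CD and 211, 236 and 279 CPM on HFD. At 20 weeks they had 207, 245 and 321 CPM on CD and 263, 297 and 329 CPM on HFD, and at 34 weeks 78.7, 155 and 293 CPM on CD and 138, 181 and 271 CPM on HFD. The diets overlapped throughout, and the log2 fold changes were 0.02 (SE 0.20, adjusted p = 0.930), 0.25 (SE 0.20, adjusted p = 0.300) and 0.34 (SE 0.19, adjusted p = 0.142). With TMM factors the 8 week value was -0.09, and fitted on the 20 week mice alone the 20 week difference passed the test (adjusted p = 0.0458). The 34 week difference passed the test without CD mouse 7, the highest of its group (0.49, adjusted p = 0.0195). No neighbours in the order of group means, from 297 ± 24.9 CPM in 20 week HFD to 157 ± 70.7 CPM in 34 week CD, differed by the test.

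To see whether the diet shifted the balance within each pair of related genes, log2 ratios were taken within each mouse, as differences of log2(CPM + 1), and compared by two-sided exact permutation tests with adjustment over the 12 tests. Lats2 to Lats1 was -0.84 ± 0.25 on CD and 0.22 ± 0.26 on HFD at 8 weeks, and -1.07 ± 0.24 and 0.17 ± 0.26 at 20 weeks, with no overlap at either time. Both differences (1.06 and 1.24) had an exact p of 0.00216, the smallest that 6 against 6 mice allow, and an adjusted p of 0.00866. Lats1 thus exceeded Lats2 in CPM in every CD mouse at these times, and at 34 weeks the ratio was 0.07 ± 0.40 on CD and 0.25 ± 0.11 on HFD (difference 0.18, exact p = 0.314, adjusted p = 0.377).

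Amotl2 to Amotl1 was higher on HFD at 20 weeks, at -1.70 ± 0.89 on CD and -0.21 ± 0.39 on HFD (difference 1.49, exact p = 0.00433, adjusted p = 0.0130). At 8 weeks the difference was 0.47 (exact p = 0.0649, adjusted p = 0.0974), which passed the test without CD mouse 6 (0.65, adjusted p = 0.0208), and at 34 weeks 0.03 (exact p = 0.882, adjusted p = 0.882). Tead3 to Tead1 was lower on HFD at 8 weeks, at -3.70 ± 0.40 on CD and -4.40 ± 0.14 on HFD, with no overlap (difference -0.70, exact p = 0.00216, adjusted p = 0.00866). The differences at 20 weeks (-0.33, exact p = 0.0887, adjusted p = 0.118) and 34 weeks (-0.42, exact p = 0.0406, adjusted p = 0.0779) did not pass after adjustment, the latter passing without CD mouse 7 (-0.51, adjusted p = 0.0224). Wwtr1 to Yap1 was higher on HFD by 0.18 at 20 weeks (exact p = 0.0195, adjusted p = 0.0468), a call lost without any of 10 of the 12 mice (adjusted p from 0.0623 to 0.0779; it held without CD mouse 3 or HFD mouse 1), and the differences were 0.24 at 8 weeks (exact p = 0.0455, adjusted p = 0.0779, or 0.0390 without HFD mouse 5) and 0.03 at 34 weeks (exact p = 0.832, adjusted p = 0.882).

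**Figure D3:**
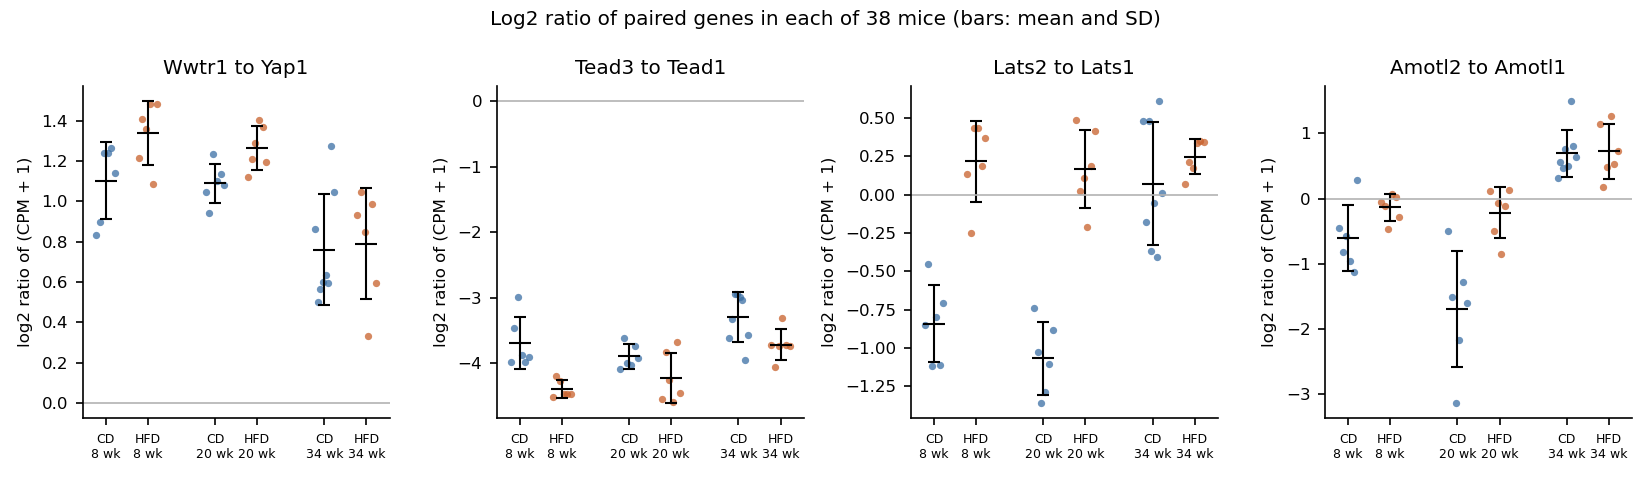
Log2 ratio of CPM + 1 (y axis) for 4 pairs of related genes in each of the 38 mice (points, blue for CD and orange for HFD), by diet and weeks on diet (x axis), with mean and SD as black bars and a grey line at equal levels. For Lats2 to Lats1 all CD mice at 8 and 20 weeks lie below the line and below every HFD mouse of the same time.

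Time on chow was compared next, as the course of the mice that had no high fat diet. The paper reports that CD mice also gained weight with time. All 11 macrophage markers were called higher at 34 than at 8 weeks on CD (median log2 fold change 2.58). Age, weight and cell make-up cannot be told apart in this comparison. Between 8 and 20 weeks on CD, Amotl2 was the single member called, lower by 1.37 on the log2 scale (SE 0.29, adjusted p = 0.00416), where 3.58% of all genes were called and 1.88% called lower. Between 8 and 34 weeks on CD 7 of 9 genes were called, beside 64.7% of all genes. Amotl2 was higher by 1.01 (SE 0.27, adjusted p = 0.00142), as were 40.1% of all genes. The other 6, Yap1, Wwtr1, Tead1, Tead3, Lats1 and Piezo1, were lower, with log2 fold changes from -0.51 for Tead3 to -0.97 for Wwtr1, while 24.6% of all genes were called lower and the median of all genes was 0.13. For Yap1 the adjusted p was 0.000167, for Wwtr1 1.2e-05 and for Lats1 6.7e-06. Lats2 (0.21, adjusted p = 0.330) and Amotl1 (-0.29, adjusted p = 0.122, or 0.0452 without 34 week mouse 7) were not called. With the macrophage markers as a covariate the calls of Yap1 (-0.35, adjusted p = 0.0830) and Tead3 (-0.16, adjusted p = 0.522) were lost.

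On HFD, 3 genes were lower at 20 than at 8 weeks, beside 36.5% of all genes called and 15.3% called lower, namely Yap1 (-0.41, SE 0.14, adjusted p = 0.0274), Wwtr1 (-0.48, SE 0.18, adjusted p = 0.0374) and Amotl1 (-0.55, SE 0.18, adjusted p = 0.0157). For each of these all 6 mice at 20 weeks lay below every mouse at 8 weeks, as in 9.63% of all genes. The call of Yap1 was lost without 8 week mouse 1 or 5 or 20 week mouse 5 (adjusted p from 0.0528 to 0.0763), that of Wwtr1 without 8 week mouse 1, 4, 5 or 6 or 20 week mouse 1, 3, 5 or 6 (adjusted p from 0.0518 to 0.0780), and all 3 with the macrophage covariate. Between 8 and 34 weeks on HFD 6 genes were lower, beside 52.5% of all genes called and 20.8% called lower. The log2 fold changes were -1.47 for Tead1 (SE 0.24, adjusted p = 9.5e-06), -1.29 for Amotl1 (SE 0.18, adjusted p = 1.2e-06), -1.21 for Wwtr1 (SE 0.18, adjusted p = 4.3e-06), -0.79 for Tead3, -0.67 for Yap1 and -0.34 for Lats1. All 6 older mice lay below every younger mouse for Tead1, Tead3, Wwtr1 and Amotl1, as in 7.67% of all genes. With the macrophage covariate the calls of Yap1 (-0.38, adjusted p = 0.129), Tead3 (-0.42, adjusted p = 0.150) and Lats1 (-0.44, adjusted p = 0.0629) were lost. Lats1 was no longer called without 8 week mouse 5 (adjusted p = 0.0822) or 34 week mouse 4 (0.102) or 5 (0.0584). In the same HFD comparison, 7 of 10 adipocyte markers were called lower and 1 higher (median log2 fold change -0.62). All 11 macrophage markers were called higher (median 2.70). The part of cell make-up in the 6 falls was not tested. These time comparisons share their groups with the diet comparisons above, so their values are given side by side and not as separate evidence.

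A direct test of whether the diet difference changed with time called none of the 9 genes between 8 and 20 weeks (4.49% of all genes; no member had an unadjusted p under 0.05 and the lowest was 0.0744 for Amotl2, and edgeR and DESeq2 also called 0), 3 between 20 and 34 weeks (10.5%, with 6.31% as falls) and 2 between 8 and 34 weeks (28.8%, with 15.9% as falls). All of these calls were falls in Lats2, Amotl1 or Amotl2. At 34 weeks the CD mice differed widely among themselves. Their macrophage markers summed to 1171 CPM in mouse 6 and 13005 CPM in mouse 5, and mouse 5 had the lowest Yap1 (56.8 CPM), Wwtr1 (88.6 CPM), Amotl1 (133 CPM) and Amotl2 (190 CPM) of the 8. Mouse 6, with the fewest of these markers, had the lowest Lats1 (36.9 CPM), Lats2 (27.6 CPM) and Piezo1 (78.7 CPM) and the next to lowest Amotl1 (175 CPM). By contrast, mouse 7, with 3816 CPM of these markers, had the highest Yap1, Wwtr1, Tead1, Lats2, Amotl1, Amotl2 and Piezo1. The part of cell make-up in these differences was not tested.

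**Figure D4:**
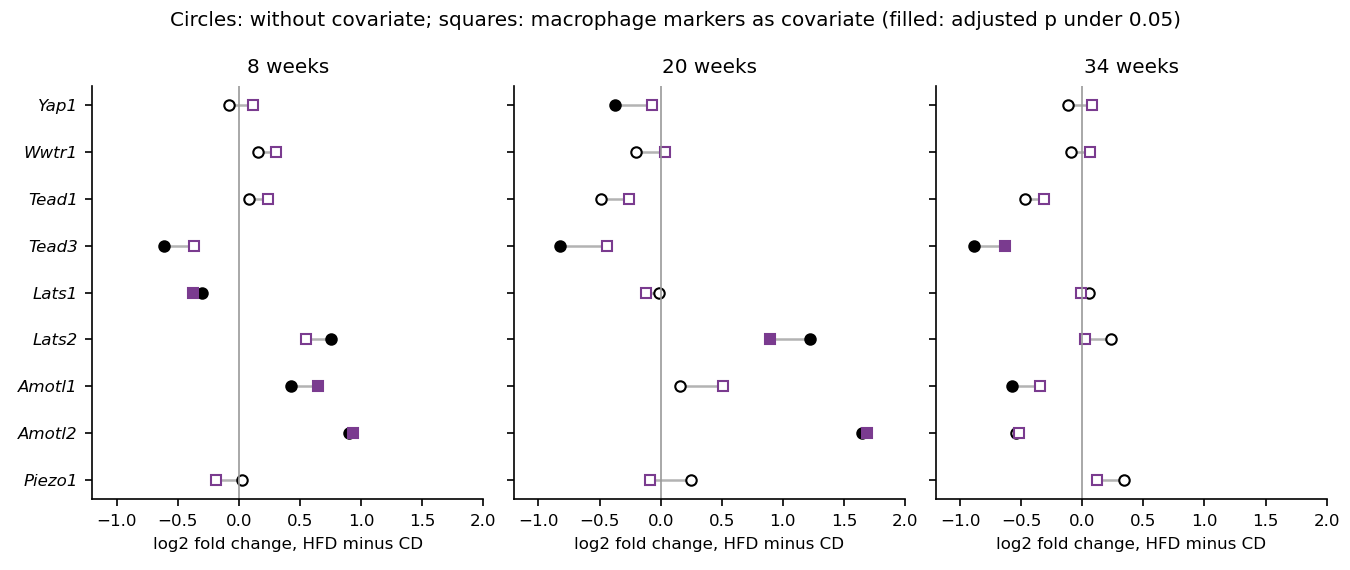
Log2 fold change of HFD against CD (x axis) for the 9 genes (y axis) at 8, 20 and 34 weeks. Black circles are values without a covariate, and purple squares those with the mean log2 level of the macrophage markers as a covariate. Symbols are filled where the adjusted p is under 0.05. With the covariate Amotl2 keeps its values at 8 and 20 weeks (0.93 and 1.69), while the Tead3 squares lie nearer to 0 than the circles.

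With the macrophage covariate in the fit, 3 members were called at 8 weeks (Lats1, Amotl1 and Amotl2), 2 at 20 weeks (Lats2 and Amotl2) and 1 at 34 weeks (Tead3), beside 33.3%, 19.3% and 6.41% of all genes. At 20 weeks the sums of the macrophage markers do not overlap between the diets, so a covariate built from them is tied to diet there.

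Levels of different genes were compared as CPM per kilobase of exon. Over the 38 mice the means were 45.3 for Wwtr1 and 10.9 for Yap1, 10.3 for Tead1 and 1.26 for Tead3, 8.12 for Lats1 and 7.76 for Lats2, 25.5 for Amotl1 and 41.0 for Amotl2, and 22.6 for Piezo1, all in CPM per kilobase. By this measure TAZ was the more abundant co-activator transcript and Tead1 the more abundant of the TEAD factors in the set. Of the other TEAD genes, Tead2 and Tead4 fell below the filter, with group means from 0.842 to 2.90 CPM and from 1.35 to 3.08 CPM.

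Within groups Wwtr1 and Amotl1 were the closest pair among the 9 genes. Over the deviations from the group means of the 38 mice, which share libraries and depth, Pearson's r was 0.87 between Wwtr1 and Amotl1, 0.78 between Yap1 and Wwtr1, 0.72 between Wwtr1 and Tead1, 0.69 between Tead1 and Amotl1, 0.68 between Yap1 and Amotl1 and between Tead1 and Tead3, and 0.58 between Yap1 and Tead1. Lats2 was nearest to Piezo1 (0.72) and Lats1 (0.65), Lats1 and Piezo1 had 0.60, and Amotl2 had no r above 0.51 with any other member. The genes with the most similar pattern to each member were taken from all genes tested. For Wwtr1 they were Sgcd (r = 0.95 over the 38 mice), a sarcoglycan, and Atrnl1 (0.94). For Yap1 they were Pkp2 (0.91), a desmosome plaque protein, Fermt2 (0.91), the integrin activator kindlin, and Apol6 (0.91). For Amotl1 they were Mid2 (0.91) and Hsdl2 (0.90), and Sgcd was among the 3 nearest to both Wwtr1 (0.91) and Amotl1 (0.90) in the deviations from group means.

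Lats1 was closest to Taok1 (0.95), an upstream kinase of the pathway, Bptf (0.94) and Atxn7 (0.94). Lats2 was closest to Phactr2 (0.93), Man1b1 and Map1a (0.91 for both), and Piezo1 to Cpeb4 (0.92), Hyal1 (0.92) and Xrn1 (0.91). Tead1 followed Sec31b, Npepps and Peli2 (0.88 to 0.89), and Tead3 followed Nrbp2 (0.92), Lamb1 (0.90) and Mlxipl (0.90), the latter encoding the carbohydrate-response factor ChREBP. Amotl2 had the loosest match, with Cdr2, Lig4 and Ccdc102a at 0.86. These r values describe likeness over mice that differ in diet and age and carry no test.

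The rest of the pathway was read from 7 lists of genes that hold none of the 9 members. Of 13 genes known as targets of YAP and TAZ, 8 were higher and 2 lower on HFD at 8 weeks, 9 higher and 1 lower at 20 weeks, and 5 higher and 2 lower at 34 weeks, with medians of 0.53, 0.99 and 0.15 on the log2 scale beside 0.11, 0.14 and 0.07 for all genes. Over all genes 29.8%, 38.3% and 27.5% were higher and 15.1%, 18.7% and 15.7% lower at these times, and the list counts that follow are read against the same shares. Myof, a membrane repair protein, rose from 14.9 ± 7.34 to 69.0 ± 37.5 CPM at 8 weeks and from 33.4 ± 37.1 to 318 ± 78.0 CPM at 20 weeks (log2 fold changes 2.12, 3.66 and 2.37 at the 3 times, adjusted p = 0.00189, 1.0e-06 and 0.000438). Axl, a receptor tyrosine kinase also made by macrophages, rose by 2.00, 3.37 and 2.04 (adjusted p = 0.000728, 3.5e-07 and 0.000391), and Igfbp3, a secreted binding protein of insulin-like growth factors, by 2.09, 2.67 and 1.89 (adjusted p = 0.000282, 4.1e-06 and 0.000481). The macrophage, endothelial and fibroblast markers rose at the same times. F3 went the other way and was lower at 20 and 34 weeks (-0.99 and -0.97, adjusted p = 0.000582 and 0.000905). Of other known targets, Ankrd1 fell below the filter, and Ctgf and Cyr61 are not among the 13 genes. With the macrophage covariate, 4, 5 and 0 of the 13 genes were called at 8, 20 and 34 weeks, all of them higher, beside 33.3%, 19.3% and 6.41% of all genes called in that fit.

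Of the 14 core kinases and adaptors, 2 were higher and 1 lower at 8 weeks, 6 and 1 at 20 weeks, and 5 and 1 at 34 weeks, with medians of 0.07, 0.11 and 0.16. The count of higher genes was below the background at 8 weeks and near it at the later times, and with the macrophage covariate 1, 5 and 0 genes were called in all. The largest changes were in Taok3 (1.06, 2.42 and 1.56, adjusted p = 0.0115, 6.6e-07 and 0.000343) and Stk4, which encodes an MST kinase that activates the LATS kinases (0.45, 1.18 and 0.71, adjusted p = 0.0315, 1.1e-06 and 0.000922). Ndrg1 is counted in this list, although its product is neither a kinase nor a known adaptor of the pathway. It was higher at 20 and 34 weeks (1.17 and 0.62, adjusted p = 7.5e-05 and 0.0217), so the counts of higher genes at those times include it. Of 16 upstream scaffolds and junction proteins, 4, 8 and 6 were higher and 0, 0 and 1 lower, with medians of 0.10, 0.35 and 0.22. These counts were near the background at 8 weeks and moderately above it later, and with the covariate 3, 4 and 1 genes were called. Frmd6, an activator of the pathway at the membrane, rose by 1.10, 2.96 and 2.50 (adjusted p = 0.0370, 1.1e-06 and 3.6e-05), and the LATS-binding LIM protein Ajuba by 0.75 at 8 and 2.06 at 20 weeks (adjusted p = 0.0111 and 5.2e-08), with 0.30 (adjusted p = 0.285) at 34 weeks.

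The STRIPAK complex, whose phosphatase opposes the MST kinases, had 11 genes tested, of which 5, 5 and 3 were higher and 2, 1 and 0 lower, with medians of 0.22, 0.24 and 0.12. At 34 weeks the count was at the background. With the covariate 3, 2 and 1 genes were called, and edgeR called 4 and 1 at 8 and 34 weeks. Ppp2ca, a catalytic subunit, was lower at 8 and 20 weeks (-0.56 and -0.62, adjusted p = 4.9e-05 and 3.6e-06), Stk24 was higher at all 3 times (0.33, 0.74 and 0.74, adjusted p = 0.0377, 1.7e-05 and 4.7e-05), and Strn was higher at 8 and 20 weeks (0.28 and 0.38, adjusted p = 0.0499 and 0.00611). Of the TEAD factors and co-regulators 2 were tested, and Vgll3, a TEAD-binding co-factor, was higher at 8 and 20 weeks (1.31 and 2.26, adjusted p = 0.0215 and 0.000110), with 0.31 (adjusted p = 0.569) at 34 weeks.

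Among the 9 other mechanosensitive channels, 2, 3 and 1 were higher and none lower, with medians of -0.02, 0.24 and 0.11. These counts were at or below the background, and with the covariate 1 was higher at 8 weeks, 1 lower at 20 weeks and none called at 34 weeks. Trpv2 was higher at 20 and 34 weeks (1.09 and 1.01, adjusted p = 0.00550 and 0.00870), and Trpv4 (0.80, adjusted p = 0.0251) and the potassium channel Kcnk2 (0.67, adjusted p = 0.00221) at 8 weeks. The actin-linked MRTF and SRF axis had 1, 6 and 6 of 9 genes higher and none lower, with medians of 0.09, 0.47 and 0.43. No MRTF gene was among these 9. Srf itself was called at no time (-0.24, 0.10 and -0.30, adjusted p = 0.186, 0.572 and 0.0885), nor were Rock2 and Vcl. At 20 weeks edgeR called 2 of them, and with the covariate 0, 1 and 2 were called, while the macrophage, endothelial and fibroblast markers were higher at the same times. Talin (Tln1) rose from 239 ± 77.3 to 650 ± 93.1 CPM at 20 weeks (1.48, adjusted p = 5.8e-07), Zyx, a focal adhesion protein, by 0.90 (adjusted p = 0.00271) and cytoplasmic actin Actg1 by 0.54 (adjusted p = 0.00787). The lists were chosen with earlier results of these data known, and their counts are a description beside the background of all genes.

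**Figure D5:**
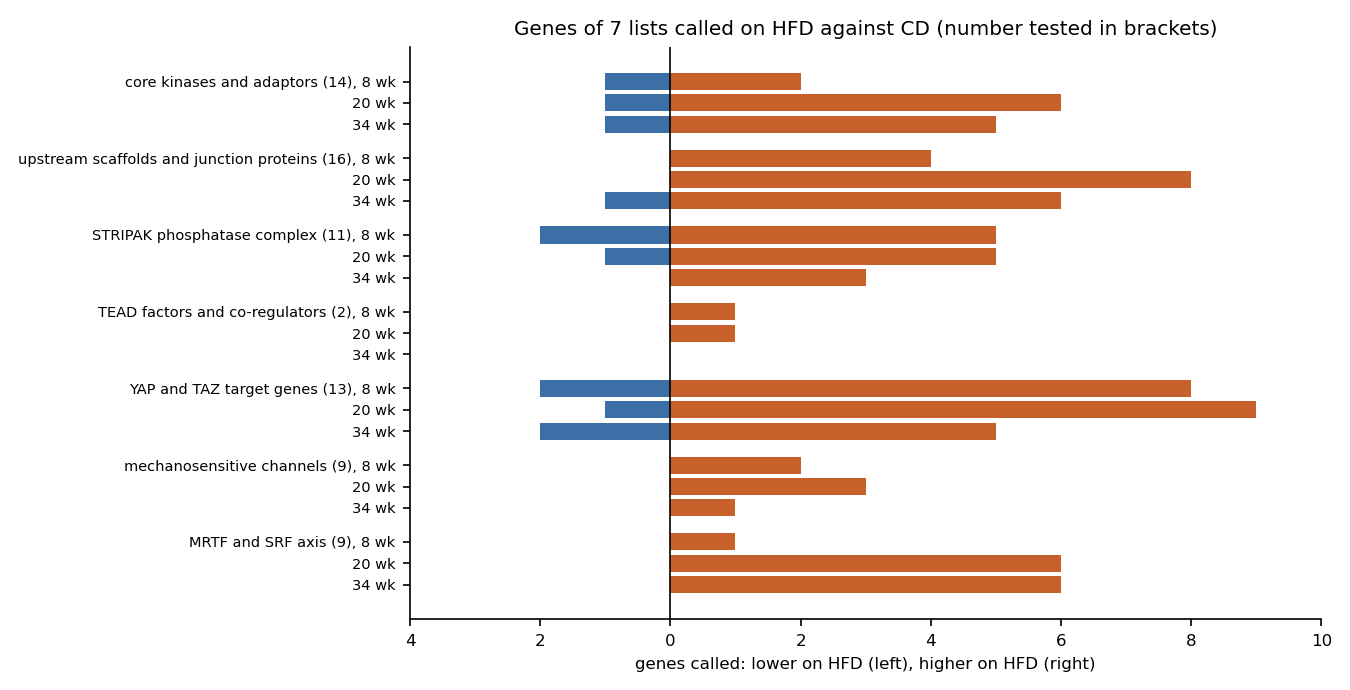
Number of genes called on HFD against CD (x axis, lower to the left in blue and higher to the right in orange) in 7 gene lists at 8, 20 and 34 weeks (y axis), with the number tested in brackets. The target list of YAP and TAZ has 8, 9 and 5 genes higher, and the MRTF and SRF list 1, 6 and 6.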

How the data were processed

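RNA-seq of perigonadal adipocytes was analysed for 38 mice. The deposited table holds CPM per gene and mouse. To make it, the authors mapped reads with STAR (2.5 and 2.5.2b in the submitters' processing notes) to mm10, counted exonic reads of GENCODE vM2 genes with featureCounts (Subread 1.5.1 in the same notes), and merged the 3 technical replicates of each mouse (114 labelled samples). The methods name TMM factors, but all columns of the table have the same total, so the values were taken as unscaled CPM. Whole reads were recovered for 100% of values within 0.1 read. Reads were not collapsed by molecule, so precision from depth covers counting error only.

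Groups were taken from the sample labels. The mice numbered within a group were treated as separate animals. Values were transformed to log2(CPM + 1), and genes with a mean above 2.0 were fitted with limma 3.58.1 in R 4.3.3, with 6 groups in one model, a mean-variance trend, 32 residual degrees of freedom, two-sided tests and Benjamini-Hochberg adjustment within each comparison. The model was checked on simulated counts. Ratios were compared by two-sided exact permutation tests. The macrophage covariate was the mean of log2(CPM + 1) over the 11 markers. Exon lengths and strands came from GENCODE vM21, gene positions from RefSeq, and start-site windows from RefSeq on GRCm38.p6.

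The 9 genes, the gene lists and the marker lists were chosen with earlier results of these data known. All 9 genes were described in every comparison; of each list the 3 genes called at 1 or more times with the largest mean diet change were named; and for each of the 9 the 3 most correlated genes, without predicted genes, were named. A few genes that these rules select are not reported here. Alternatives were a pseudocount of 0.25 or 4, no filter, TMM or median-of-ratios factors, separate fits, array weights, the mouse number as a block, the macrophage covariate, edgeR 4.0.16 and DESeq2 1.42.0 on recovered reads, and leaving out each mouse in turn. The macrophage covariate for the gene lists was added after seeing the data.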

Additional observations from a re-analysis of the deposited data

Results flagged for a closer look

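Of 54 gene and group combinations tested for a single mouse far from the others, 3 stood out by Dixon's criterion, which chance alone would mark in about 1 in 20. In the 20 week HFD group mouse 5 was low for both Yap1 (72.6 CPM) and Lats1 (55.1 CPM), and in the 8 week HFD group mouse 2 was high for Tead3 (9.01 CPM).

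The diet difference changed with time for 3 genes by limma's test of the difference itself. From 20 to 34 weeks it moved by -0.99 for Lats2, -0.73 for Amotl1 and -2.19 for Amotl2 on the log2 scale, and from 8 to 34 weeks by -1.001 for Amotl1 and -1.45 for Amotl2. For Amotl2 the level on CD was 195 ± 80.6, 78.7 ± 38.4 and 391 ± 131 CPM at 8, 20 and 34 weeks and on HFD 346 ± 52.6, 225 ± 46.3 and 267 ± 99.8 CPM, so the CD level covered the wider span.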

How the results depend on the processing

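Over all comparisons, 916 values of the 9 genes kept their side of the threshold under the alternatives, 44 crossed into a call and 30 out of it, and when single mice were left out 1414 kept it, 10 crossed in and 52 out. For HFD against CD at 8 weeks the 5 calls became 3 with no filter and 3 with the macrophage covariate; at 20 weeks the 4 calls became 2 with that covariate; and at 34 weeks the 2 calls became 4 with TMM factors, 4 with median-of-ratios factors, 4 with edgeR, 4 with DESeq2, 1 in a separate fit and 1 with the covariate. For HFD at 20 against 8 weeks the 3 calls became 5 in a separate fit, 6 with array weights and 0 with the covariate, and at 34 against 8 weeks the 6 became 3 with the covariate. For the change of the diet difference, the 0 calls from 8 to 20 weeks became 1 in a separate fit and 4 with array weights, the 3 from 20 to 34 weeks became 1 in a separate fit, and the 2 from 8 to 34 weeks became 5 with array weights. The Tead3 to Tead1 difference at 34 weeks was -0.55 with a pseudocount of 0.25 and then passed the test. For these values the cause was not tested. Leaving out each mouse gave 3 to 4 calls at 8 weeks, 3 to 5 at 20 weeks, 2 to 3 at 34 weeks and 1 to 3 for HFD at 20 against 8 weeks, and differences of 0.18 to 0.29 and 0.15 to 0.20 for Wwtr1 to Yap1 at 8 and 20 weeks, -0.51 to -0.35 for Tead3 to Tead1 at 34 weeks and 0.37 to 0.65 for Amotl2 to Amotl1 at 8 weeks.

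Of the gene lists, edgeR called 7 upstream scaffolds at 8 weeks (4 by limma), 4 and 1 STRIPAK genes at 8 and 34 weeks (7 and 3) and 2 MRTF and SRF genes at 20 weeks (6). With the macrophage covariate, chosen after seeing the data, the counts at 8, 20 and 34 weeks were 1, 5 and 0 for core kinases, 3, 4 and 1 for scaffolds, 3, 2 and 1 for STRIPAK, 0, 1 and 0 for TEAD co-regulators, 4, 5 and 0 for the targets of YAP and TAZ, 1, 1 and 0 for channels and 0, 1 and 2 for the MRTF and SRF axis. Over all genes it called 1995 in place of 5894 at 20 weeks and 663 in place of 4468 at 34 weeks, and array weights called 7032 in place of 4648 at 8 weeks, while the separate fit called 2457 at 34 weeks.

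Mouse numbers are shared between groups in the labels, which do not say how they were given. Over 90 pairs of same-numbered mice the correlation of deviations ran from -0.68 to 0.55 (median -0.07), with 30 above 0.1. Such correlations cannot tell whether a number stands for a shared batch, and the main fit did not pair the mice. With the number as a replicate block, the change of the diet difference from 8 to 34 weeks had 4 calls in place of 2. At 34 weeks the HFD against CD value with the block was 0.60 for Piezo1 (adjusted p = 0.00371, gained) and -0.39 for Amotl1 (adjusted p = 0.0529, lost). Depth limits Tead3 most, since its lowest value of 2.25 CPM is the smallest of the 9 genes.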
